A study of Homo sapiens with 3 samples.

Results

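RBM17 eCLIP in K562 cells gave 866 reproducible peaks, and 263 of them (30.4%) had a proximal intron as the first region listed for them. Proximal introns are the stretches of intron that lie near an intron/exon boundary but outside the splice site itself, which the study counted as a class of its own. The members were found by joining the list of reproducible peaks to the study's region annotation by chromosome, start, end and strand, and all 866 peaks were joined. The 263 peaks lay in 168 gene entries (169 Ensembl genes), with 120 peaks on the plus strand and 143 on the minus strand, and were found on 21 chromosomes.

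K562 is an established chronic myelogenous leukemia cell line, and no drug, knockdown or genotype distinguished the samples. The RBM17 eCLIP group held 2 replicates precipitated with a mixture of RBM17 antibodies, and the other group was 1 size-matched input without precipitation. In eCLIP, RNA is fixed to bound proteins by ultraviolet light, the protein of interest is pulled down with its RNA fragments, and places with more fragments than the input are called as peaks. No precipitation with a control antibody was among the samples. The study calls them biological replicates, and what set them apart, such as separate cultures, is not described. Their numbers here follow the sample descriptions, since the titles use 2 and 3, and the study's methods speak of duplicates in one place and of triplicates in another. Of 10 genes that mark K562 cells, 10 had a replicate 2 cluster (19 to 1553 reads per gene) and 9 a cluster in both replicates, whereas of 6 markers of other cell types 1 had any (EPCAM, 11 reads) and 0 in both. The 1553 reads were listed for HBG2 in 128 clusters, against 139 in 3 clusters for HBG1.

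RBM17, also known as SPF45, is a splicing factor with an RNA recognition motif of the UHM type, through which it contacts proteins that recognise the 3' splice site region. Introns carry the splice sites and, close to the exons, many of the short sequences through which RNA-binding proteins promote or repress the use of an exon. Proteins of the SR and hnRNP families act through such elements, and several of their own pre-mRNAs contain poison exons, whose inclusion introduces a premature stop codon and sends the transcript to nonsense-mediated decay.

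The available values differ between the libraries. Each reproducible peak carries 1 log2 fold and 1 −log10 p over the input, here called the combined values. The study's peak table heads this pair of columns as the log2 folds of replicates 1 and 2, which the values go against. At the 508 reproducible peaks with the interval of a replicate 1 cluster, the first column never exceeded the −log10 p of replicate 1 and equalled it at 76. The lower value of the 2 replicates would behave so, but no source used here states how the column was formed. It is therefore not read as a joint significance. At the 508 peaks the second column took 435 distinct values (to 4 decimals) and the replicate 1 log2 fold 242, while 2 times the second column minus the replicate 1 fold took only 162. The second column was therefore read as the mean of both replicates' log2 folds, a reading that no source used here states, and it carries no error of its own. On that reading, the log2 fold of replicate 2 at the 167 proximal intron peaks with a replicate 1 interval had a median of 3.48, against 4.21 in replicate 1, and was under 3 at 48 of them. The 167 were picked by the replicate that gave the interval, and the value was not derived at the other 96. Replicate 1 was deposited as 137095 clusters with their own log2 fold and −log10 p over the input, the latter limited to 400, and without reads. Replicate 2 was deposited as 119066 clusters with a number of reads (a median of 5, and 1336569 in all when each interval was counted once) and without a comparison with the input. Each peak was therefore described by its combined log2 fold, by the log2 fold of the replicate 1 cluster with the largest overlap on the same strand, and by the reads of the corresponding replicate 2 cluster. With 1 value per replicate, and with peaks and genes that are not replicates of a condition, no test between groups of peaks was made. Intervals given with medians and shares are exact 95% intervals and cover counting error only.

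EIF4A2, an RNA helicase of the cap-binding complex that starts translation, carried 6 proximal intron peaks and no peak in another region. Its peaks lay on chromosome 3 (hg19, plus strand) between 186505805 and 186506533, a span of 729 nt. In the GENCODE v44 annotation of GRCh38 the canonical EIF4A2 transcript has 10 introns, of which 3 are longer than that span. The longest is intron 10, of 1242 bp, which holds 1 cassette exon event on the study's list of splicing changes after RBM17 knockdown. Its ends are shown because EIF4A2 is one of the targets the study followed, with the first and last bases of the intron (the GT and AG dinucleotides) in capitals. The first 120 bases, at chr3:186787883-186788002 in GRCh38 on the plus strand, contain 21.7% G, and the last 120 bases, at chr3:186789005-186789124, contain 20.8% G. The peaks are in hg19 and were not placed on this sequence.
EIF4A2 intron 10, first bases: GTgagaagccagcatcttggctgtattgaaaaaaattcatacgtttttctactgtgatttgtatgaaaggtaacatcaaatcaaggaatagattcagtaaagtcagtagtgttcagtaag
EIF4A2 intron 10, last bases: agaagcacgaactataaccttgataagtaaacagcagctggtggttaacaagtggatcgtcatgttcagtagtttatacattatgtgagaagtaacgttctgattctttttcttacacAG

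The 6 EIF4A2 peaks had combined log2 folds of 3.64, 3.36, 3.04, 3.18, 3.01 and 3.89 in order along the transcript. The replicate 1 clusters at the same places had log2 folds of 4.42, 4.33, 3.95, 3.98, 3.74 and 4.44. Replicate 2 gave 45, 45, 31, 42, 42 and 34 reads, where the first pair of peaks and the fourth and the fifth each shared a cluster. All 6 were higher in replicate 1 than over both replicates together, and the value of 3.01 was the lowest log2 fold of all 263 proximal intron peaks. The member clusters held 152 of the 1167 replicate 2 reads of the gene, or 13.02% (11.1 to 15.1%). None of the 6 exceeded the median combined log2 fold of all proximal intron peaks, which was 3.89.

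Over all 263 peaks, the combined log2 fold lay between 3.01 and 7.17 (median 3.89), and 122 peaks reached 4, 27 reached 5 and 7 reached 6. The combined −log10 p lay between 3.12 and 44.3 (median 5.83). Replicate 1 clusters at these peaks had log2 folds between 2.42 and 9.51 (median 4.14) and a median −log10 p of 12.5, with 7 peaks at the limit of 400. Replicate 2 clusters at the peaks held between 9 and 208 reads, with a median of 23. Their lengths ran from 3 to 237 bp (median 62 bp).

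Proximal introns were the only region listed for 213 peaks, and 50 had a further region. Of these 50, 33 reached into a 3' splice site, 8 into a distal intron, 8 into a 5' UTR and 2 into coding sequence, while none listed a 5' splice site. In 17 peaks the 3' splice site held the most bases. Among them were peaks named below, of RPL10A (combined log2 fold 5.37), SCAF4 (5.23), CCNL1 (4.88), DHX9 (4.38) and SETD5 (3.90). In the H3F3B peak (6.07) the 5' UTR held the most. A peak that abutted a proximal intron peak of the same gene was found for 35 members, and merging these left 244 separate places. A further 5 members abutted a peak of the 5' splice site class.

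Replicate 1 was enriched at most of these places, and its difference from the combined value varied with the replicate that gave the interval. A replicate 1 cluster with a log2 fold of at least 3 overlapped 244 of the 263 peaks (92.8%, 88.9 to 95.6%), against 8.56% of all replicate 1 clusters. The peaks were selected by the authors on enrichment, so nothing is read from that difference. Exactly 167 members had the interval of a replicate 1 cluster and the other 96 that of a replicate 2 cluster. At the 167, replicate 1 gave the higher fold in 152, by a median of 0.37 on the log2 scale. At the 96, replicate 1 was higher in 40 and the median difference was -0.11, and the 19 peaks with a replicate 1 log2 fold under 3 were all among these. The replicate 1 value at the 96 is that of an overlapping cluster with another interval than the peak, so unlike intervals are compared there. The −log10 p of replicate 1 was below the combined one at none of the 167 and equal to it, within 1e-06, at 14. Combined and replicate 1 folds ranked the members alike (Spearman correlation over 263 peaks 0.84), where the combined fold includes replicate 1. The combined −log10 p followed the replicate 2 reads (0.82), while the fold and the reads had a correlation of -0.16. Both the combined −log10 p and the reads depend on the depth of replicate 2. Where the column holds the value of replicate 2 itself, such a correlation is partly built in.

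**Figure D1:**
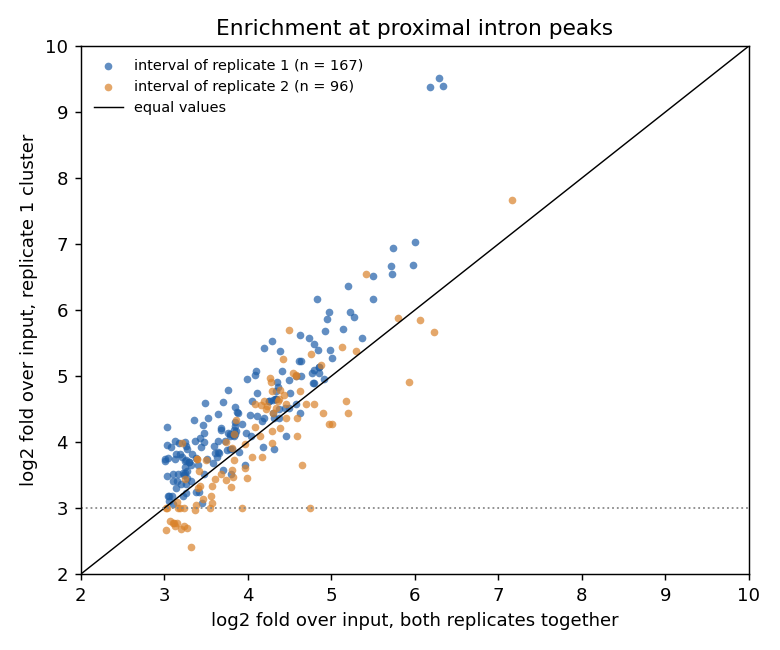
Log2 fold over input of the replicate 1 cluster (vertical axis) against the combined log2 fold of the reproducible list (horizontal axis), 1 point per proximal intron peak. Blue points have the interval of a replicate 1 cluster (n = 167) and orange points that of a replicate 2 cluster (n = 96), the solid line marks equal values and the dotted line a replicate 1 log2 fold of 3. The 3 points between 9.38 and 9.51 are those of HSP90AA1.

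The largest gaps between replicate 1 and the combined value were at HSP90AA1, the inducible cytosolic HSP90 chaperone. Its 3 abutting peaks on chromosome 14 (102552899 to 102552939) had combined log2 folds of 6.33, 6.18 and 6.30. Replicate 1 gave 9.39, 9.38 and 9.51, each at the limit of the −log10 p, while the combined −log10 p was 3.53, 3.78 and 4.07. All 3 lay on 1 replicate 2 cluster of 17 reads, and replicate 1 was 3.06 to 3.22 above the combined value. With the combined fold read as a mean, replicate 2 had log2 folds of 3.27, 2.99 and 3.08 there. In no other gene did replicate 1 exceed the combined fold by more than 1.34, and in 16 members in all replicate 1 exceeded the combined fold by more than 1. Replicate 1 fell below the combined fold by more than 1 in 2 members, at XPO6 (2.997 against 4.75) and at NCAPG2 (4.92 against 5.94). Both peaks had the interval of a replicate 2 cluster, and their replicate 1 values are those of overlapping clusters with another interval.

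The strongest enrichment was in ACTB, which encodes the cytoskeletal protein beta-actin. A peak at chromosome 7, 5569978 to 5570044, had a combined log2 fold of 7.17, a replicate 1 log2 fold of 7.66 and 73 replicate 2 reads. After HSP90AA1, the next highest were NPM1 (nucleophosmin, a nucleolar protein) at 6.23, H3F3B (histone H3.3) at 6.07, HNRNPDL at 6.001 and 5.98, NCAPG2 (a subunit of condensin II) at 5.94 and XPO1 (the main nuclear export receptor) at 5.80. In replicate 1 these were 5.67 for NPM1, 5.84 for H3F3B, 7.04 and 6.68 for HNRNPDL, 4.92 for NCAPG2 and 5.88 for XPO1. Proximal intron peaks made up 30.4% of the whole list, 6 of its 10 highest folds, 10 of the highest 20 and 23 of the highest 50. Among the 6 were the 3 abutting HSP90AA1 peaks, which lay on 1 replicate 2 cluster of 17 reads. How the authors assigned reads that match more than 1 place in the genome is not given in the sources used here.

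The deepest peaks were not the most enriched ones. OGT, the enzyme that adds O-GlcNAc to proteins, held 2 abutting peaks on 1 replicate 2 cluster of 208 reads, with combined log2 folds of only 3.26 and 3.10. HNRNPA2B1 followed with 172 reads at a log2 fold of 4.23, and SRRM2, a scaffold of nuclear speckles, with 161 reads shared by peaks of 3.86 and 4.76. Others among those with the most reads were HNRNPH1 (126 reads, log2 fold 3.25), CDK5RAP3 (104 reads, 4.30), a second HNRNPA2B1 peak (99 reads, 4.33) and another SRRM2 peak (97 reads, 3.76). At the low end of the fold stood EIF4A2 at 3.01, PRC1 (a protein of the cytokinesis spindle) at 3.01 with 20 reads and ASNS (asparagine synthetase) at 3.02 with 23 reads. Reads per cluster also follow the abundance of the RNA, which was not measured here.

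Compared with other regions, proximal intron peaks resembled those at the 5' splice site and stood above coding peaks. The median combined log2 fold was 3.89 (3.82 to 4.09) in proximal introns, 3.87 (3.77 to 4.07) at the 190 peaks of 5' splice sites, 3.68 (3.53 to 3.76) at the 180 coding peaks and 3.77 (3.65 to 3.88) at the 233 peaks of all other regions. In replicate 1 the medians were 4.14 (4.01 to 4.33), 4.04 (3.89 to 4.22), 3.61 (3.51 to 3.73) and 3.89 (3.73 to 4.02). The intervals of proximal introns and coding sequence did not overlap in either measure, while those of proximal introns and 5' splice sites did. A combined log2 fold of at least 4 was reached by 46.4% (40.2 to 52.6%) of proximal intron peaks, 44.7% (37.5 to 52.1%) of 5' splice site peaks and 31.7% (24.9 to 39.0%) of coding peaks. Replicate 2 reads were 23 (21 to 25) in the median at proximal introns, 19 (18 to 22) at 5' splice sites, 21.5 (20 to 23) at coding peaks and 26 (23 to 30) at the rest. Peaks of one gene share that gene's RNA, so these intervals treat as separate what is partly shared.

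**Figure D2:**
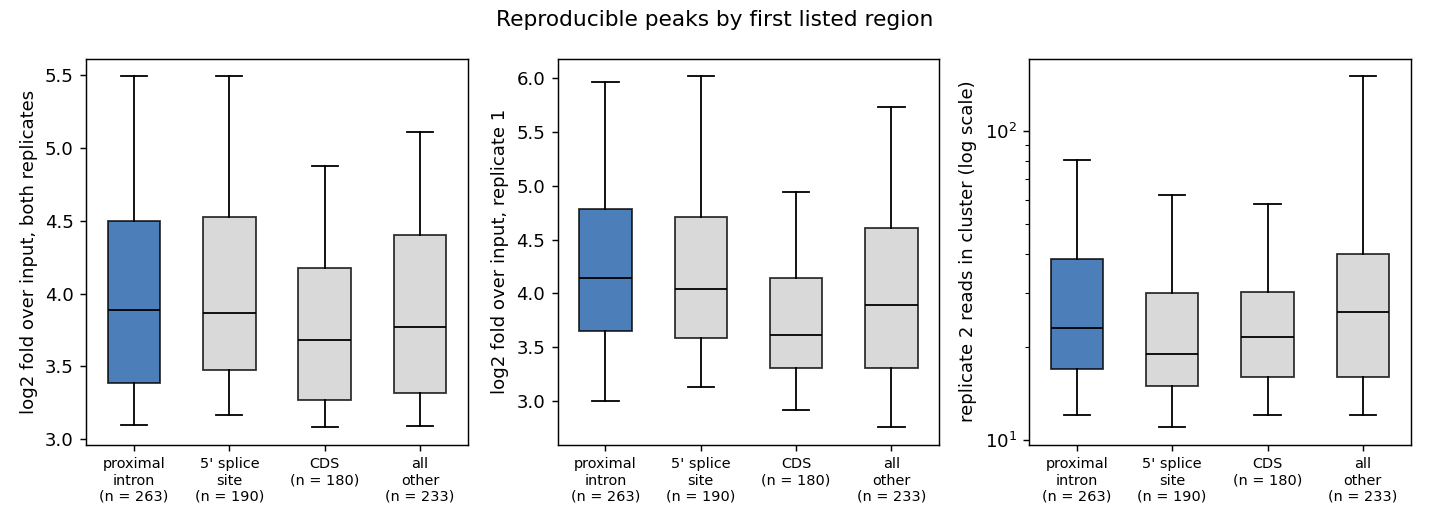
Combined log2 fold, replicate 1 log2 fold and replicate 2 reads (log scale) of the reproducible peaks by first listed region, with boxes from the lower to the upper quartile, a line at the median and whiskers from the 5th to the 95th percentile of the peaks. Proximal intron peaks (blue, n = 263) have the highest median in both folds, at 3.89 and 4.14, and coding peaks the lowest, at 3.68 and 3.61.

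Within genes that had a peak in both classes, proximal introns and 5' splice sites were close. In 62 genes with both, the strongest proximal intron peak had the higher combined log2 fold in 33, with a median difference of 0.05, and the higher replicate 1 log2 fold in 36, with a median difference of 0.19. Replicate 2 reads were higher at the proximal intron in 30 of the 62 and equal in 7, where the same cluster or an equal count served both. Of the 168 gene entries, 78 carried proximal intron peaks only and 90 also carried 183 peaks in other regions, among them 85 at 5' splice sites, 48 in coding sequence and 21 in distal introns.

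Most genes had a single proximal intron peak, and a small set had clusters of them. Of the 168 entries, 112 had 1, 33 had 2 and 23 had 3 or more, and those 23 together held 85 of the 263 peaks. Of the 263 peaks, 112 lay within 500 nt of another of the same gene, and the median distance to the nearest, in the 151 peaks that had one, was 141 nt. Within the 56 genes with more than 1, the median range of the combined log2 fold was 0.89, and ACTB had the widest at 3.68.

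ACTB carried 6 proximal intron peaks and 3 in other regions. Read in the direction of transcription, the members had combined log2 folds of 7.17, 4.83, 5.74, 5.42, 3.49 and 3.99. Replicate 1 gave 7.66, 6.16, 6.94, 6.55, 4.59 and 4.96 in the same order. Among these members the enrichment was therefore highest at the first and lowest at the last pair, in both measures. A 3' splice site peak after that pair was lower still, at 3.06 combined and 3.90 in replicate 1. SRSF6, an SR protein that promotes exon inclusion, carried 5 members that followed a 5' splice site peak, with combined log2 folds of 4.41, 4.19, 4.29, 3.48 and 3.25 and replicate 1 log2 folds of 5.08, 5.43, 5.53, 4.00 and 3.71. The first 4 of them lay on 2 replicate 2 clusters of 47 reads each, and the last had 25 reads.

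HNRNPDL, an hnRNP D relative, carried 4 members, 3 of them together and 1 farther downstream, over a span of 4076 nt. In the direction of transcription the combined log2 folds were 5.98, 6.001, 4.05 and 3.74, and those of replicate 1 were 6.68, 7.04, 4.62 and 3.43. PTBP1, the polypyrimidine tract-binding protein that represses exons, carried 4 within 593 nt, with combined log2 folds of 3.82, 4.08, 3.83 and 5.01. U2AF1, the small subunit of U2AF that recognises the AG at the 3' end of introns, carried 4 over 6552 nt, with log2 folds of 5.01, 4.26, 4.14 and 3.19 along the transcript. HNRNPU, a nuclear scaffold protein, carried 3 members close together, at 3.03, 4.22 and 4.39, and 1 at 3.55 at the other end of a span of 8290 nt.

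The other genes with 4 members were not splicing factors of the SR or hnRNP families. CDK5RAP3, a protein of the UFM1 modification system, carried 4 within 506 nt with combined log2 folds of 4.30, 3.51, 3.21 and 4.29 and with 104, 57, 72 and 86 replicate 2 reads, where the median of all members was 23. CLCN7, a chloride/proton exchanger of lysosomes, carried 4 over 3500 nt with log2 folds from 3.10 to 4.69. PPIL2, a cyclophilin-like ubiquitin ligase of the spliceosome, carried 4 that spread over 22833 nt with log2 folds from 3.06 to 4.19, and GSE1, a chromatin-associated protein, carried 4 over 3122 nt between 3.58 and 4.05.

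**Figure D3:**
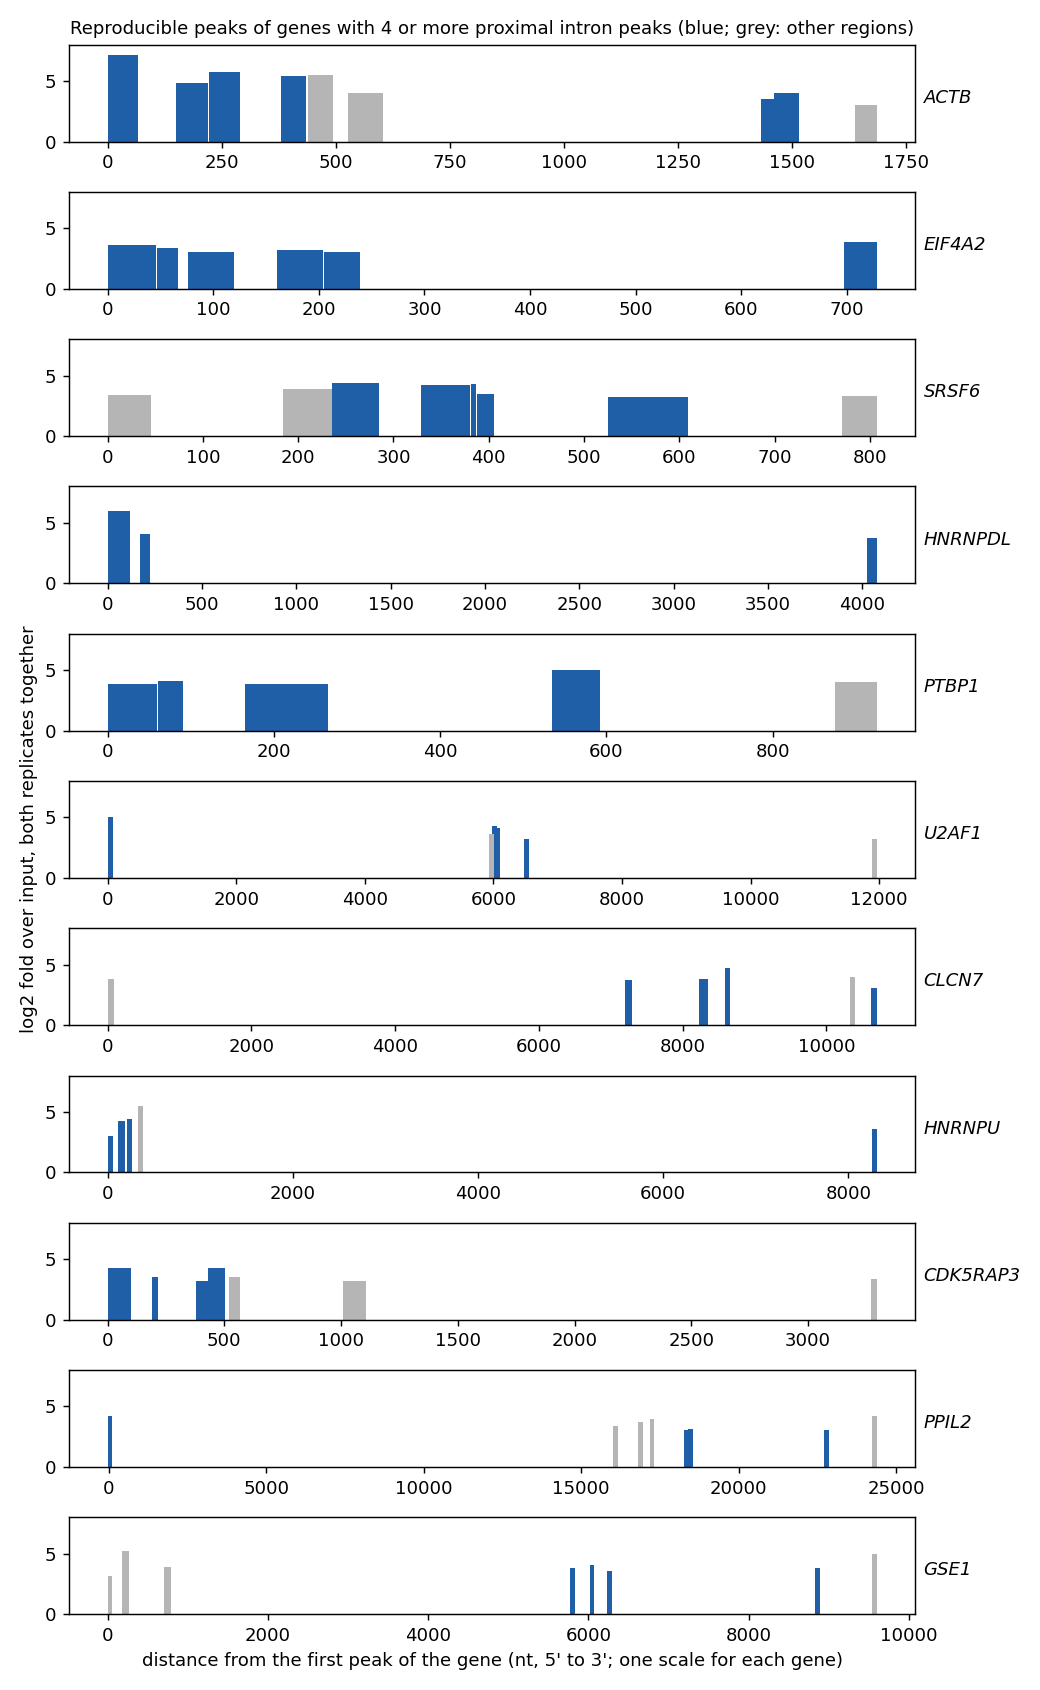
Reproducible peaks of the 11 genes with 4 or more proximal intron peaks, as distance from the gene's first peak in the direction of transcription (horizontal, nt, a scale for each gene) against the combined log2 fold over input (vertical, bars from 0). Blue bars are proximal intron peaks and grey bars other regions, and short peaks are drawn slightly wider than to scale. ACTB and SRSF6 show runs of neighbouring peaks, while in PPIL2 they lie far apart.

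The 12 genes with 3 members included SRRM2 and HNRNPA2B1, EIF3B (a subunit of the eIF3 initiation complex), SFPQ (a paraspeckle protein), HMGN2 (a nucleosome-binding protein), UBE2D3 (a ubiquitin-conjugating enzyme), CHTF18 (a part of an alternative clamp loader), IST1 (an ESCRT-III protein), HNRNPA1, ATP5B (the beta subunit of ATP synthase), HSP90AA1 and EZH2. Leaving out HSP90AA1, their combined log2 folds lay between 3.02 and 5.50. In UBE2D3 the 3 peaks abutted and had log2 folds of 3.65, 4.61 and 5.50 in order of position, with replicate 1 log2 folds of 4.02, 5.23 and 6.51. EZH2, the methyltransferase of Polycomb complex 2 and a target that the study followed, had a pair of abutting peaks at 4.50 and 3.73 that shared a cluster of 28 reads, and 1 at 3.32 with 23 reads. At the last of these the replicate 1 log2 fold was 2.42, the lowest of all members, from a cluster with another interval than the peak. RBM17 itself carried 1 member on chromosome 10 (6154417 to 6154484), with a combined log2 fold of 3.16, a replicate 1 log2 fold of 2.997 and 27 reads. There, too, the replicate 1 cluster had another interval than the peak.

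The peaks took a variable share of the reads that replicate 2 found in their gene. In 166 entries the member clusters held a median of 8.15% of the gene's reads, from 5.06% of its clusters, and in 51 entries (30.7%) a member cluster was the deepest of the gene. The share was highest in SRSF6, with 119 of 252 reads or 47.2% (40.9 to 53.6%), followed by CGGBP1 with 46.9%, GALT with 46.9% of only 32 reads and CDK5RAP3 with 39.5% (36.1 to 43.0%). In SRSF6 a 5' splice site peak abutted the first member, and each had a cluster of 47 reads. These may be the same cluster, so part of that share may belong to the splice site. None of the 166 reached 50%. The share was not computed for HNRNPA1, whose member clusters replicate 2 listed under another gene, nor for the entry of PSMA1 and COPB1, which names 2 genes.

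Genes with a proximal intron peak were then counted in 14 lists of related genes, beside the 7349 genes with a cluster in both replicates, of which 169 (2.30%) carried one. Reads per gene differed between the groups, and their part in the counts was not tested. Genes with a proximal intron peak had a median of 341 replicate 2 reads, genes with peaks in other regions 257.5 and the remaining genes 56.5, and among the 2372 genes with at least 100 reads the share was 6.62%. The hnRNP list had the highest share, with 13 of 26 genes carrying 28 peaks (50.0% against 2.30%) and 13 of 24 among genes with at least 100 reads (54.2% against 6.62%). Reproducible peaks of any region were also frequent in some lists. They were carried by 18 of the 26 hnRNP genes, 15 of 27 nuclear speckle and RS-rich genes, 5 of 12 SR genes and 7 of 23 RBM genes. Of these, 13, 5, 3 and 1 had one in a proximal intron, against 169 of all 418 genes with a peak. Each list was compiled with earlier results of these data known, and no test was made.

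Among RNA-binding regulators, the hnRNP genes with the strongest peaks were HNRNPDL at a log2 fold of 6.001, PTBP1 at 5.01, HNRNPC at 4.92 and HNRNPL at 4.64. These proteins coat nascent transcripts, and many repress exon use. Of the SR proteins, 3 of 12 carried a peak: SRSF1 at 5.72, SRSF6 at 4.41 and SRSF7 at 4.02. Nuclear speckle and RS-rich proteins had 5 of 27, led by SCAF4 at 5.23, SRRM2 at 4.76, BCLAF1 at 4.58 and LUC7L at 3.96. The cyclin L and CLK list had 2 of 18, both cyclins L (CCNL1 at 4.88 and CCNL2 at 4.37). Core spliceosome genes had 2 of 53, U2AF1 and SF1 (the branch point binding protein, 3.28), and the RBM family 1 of 23, which was RBM17. The last pair of shares, 3.77% and 4.35%, lay close to the background of 2.30%, and the interval of the cyclin L and CLK list (1.38 to 34.7%) included it.

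In the lists of other functions, 5 of 33 DEAD and DEAH box helicases carried a peak, with DDX39A at 5.49, DHX9 at 4.38, DDX5 at 4.29 and EIF4A2 at 3.89. Translation factors had 4 of 41 (EIF3B at 4.20, EIF5 at 4.11, EIF1 at 4.04 and EIF4A2), and chaperones 4 of 24 (HSP90AA1, TCP1 at 4.50, HSPA5 at 3.47 and CCT5 at 3.28). Ribosomal proteins had 6 of 78, among them RPL10A at 5.37, RPL3 at 4.63 and RPL5 at 4.28, and among those with at least 100 reads 5 of 67 (7.46% against 6.62%). Chromatin genes had 4 of 72 (EHMT1 at 4.79, EZH2 at 4.50, DNMT1 at 4.46 and SETD5 at 3.90), ubiquitin-specific proteases 1 of 26 (USP15 at 4.95) and erythroid transcription factors 1 of 19 (STAT5B at 4.58). As shares, these were 15.2% of the helicases, 9.76% of the translation factors, 16.7% of the chaperones, 7.69% of the ribosomal proteins, 5.56% of the chromatin genes, 3.85% of the proteases and 5.26% of the erythroid factors, against 2.30% of all genes. The intervals of the chromatin genes (1.53 to 13.6%), the proteases (0.0973 to 19.6%) and the erythroid factors (0.133 to 26.0%) include 2.30%. Among genes with at least 100 reads the shares were 27.8% of the helicases, 16.0% of the translation factors and 22.2% of the chaperones. They were 9.30% of the chromatin genes, 6.25% of the proteases and 9.09% of the erythroid factors, against 6.62% of all such genes. Of the 17 genes of nonsense-mediated decay and the exon junction complex none carried one, where the interval reaches 19.5% and so includes the background, and 1 had a peak with a proximal intron listed in any place.

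**Figure D4:**
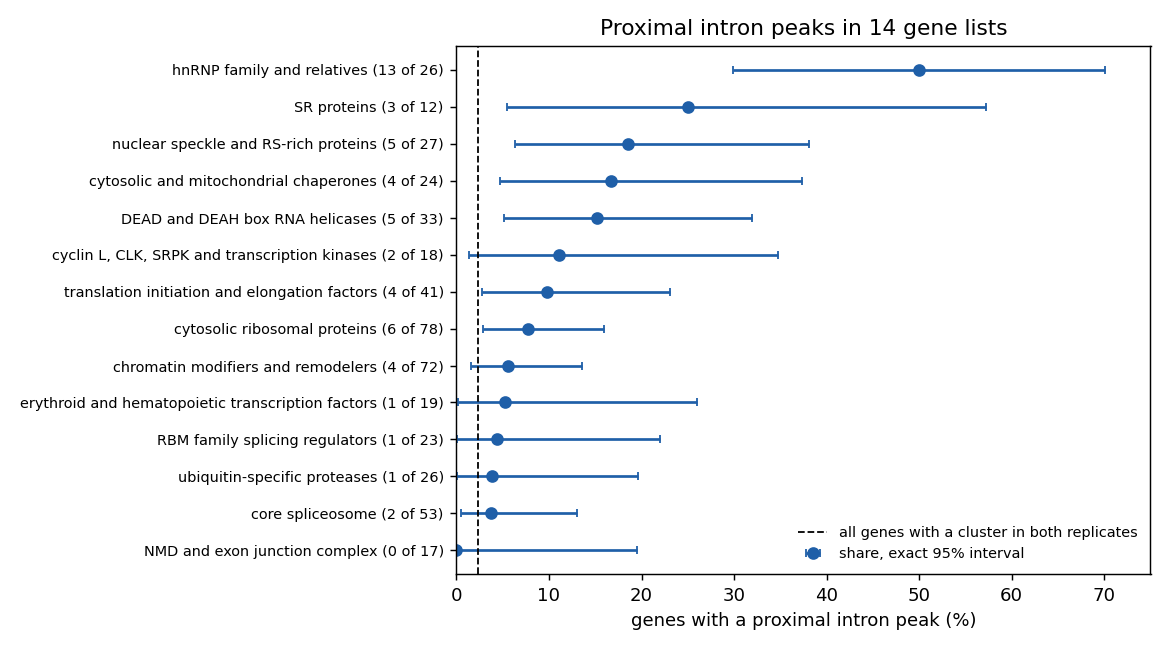
Share of genes with a proximal intron peak (horizontal, percent) in 14 gene lists, with exact 95% intervals, and the number of genes in parentheses. The dashed line is the share among all genes with a cluster in both replicates (2.30%), and the hnRNP list, with 13 of 26 genes, lies farthest to its right.

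Enrichment was concentrated at the peaks, although many stood in regions with other clusters. Replicate 1 clusters 100 to 500 nt away from a member, present for 248 members, had a median log2 fold of 3.05 (804 clusters), against 4.14 at the members and 1.51 in all replicate 1 clusters. Per member, the peak exceeded the median of its flanking clusters by a median of 1.11 and was higher in 226 of 248. Some flanking clusters lay at other reproducible peaks. Without these, the flanking median was 2.73 (647 clusters) and the peak was higher in 234 of 244 members. The members were selected on their enrichment, so a higher value at the peak than beside it is what the selection gives, and only its size and extent are described.

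**Figure D5:**
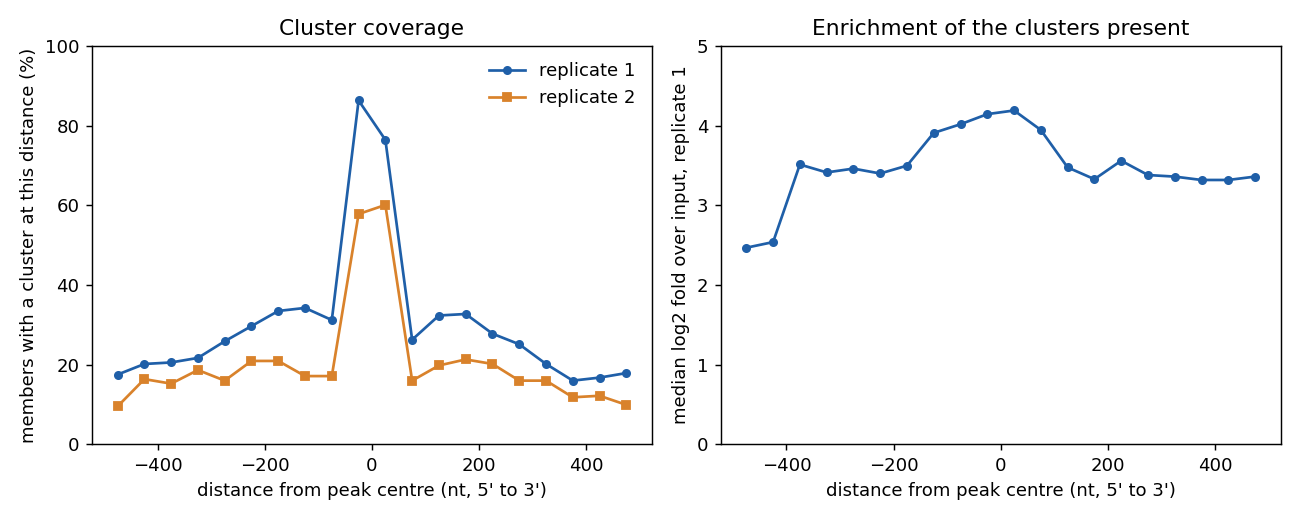
Replicate clusters around the centres of the 263 proximal intron peaks, in bins of 50 nt along the direction of transcription (horizontal, distance in nt). On the left, the percentage of members with a replicate 1 (blue) or replicate 2 (orange) cluster falls from 86.3% and 57.8% at -25 nt to 31.2% and 17.1% at -75 nt, and on the right the median log2 fold of the replicate 1 clusters present falls from 4.14 at -25 nt to 3.40 at -225 nt.

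Finally, genes with a proximal intron peak were set beside the study's list of splicing events that changed after RBM17 knockdown in K562 cells. A changed event of any type was listed for 26 of 169 genes (15.4%, 10.3 to 21.7%), 35 of 248 genes with peaks in other regions only (14.1%, 10.0 to 19.1%) and 9.23% (8.56 to 9.94%) of the 6932 other genes with clusters. The last interval lay below those of both groups of genes with peaks. Among genes with at least 100 replicate 2 reads these shares were 15.9% (10.6 to 22.6%), 15.5% (10.9 to 21.1%) and 12.6% (11.2 to 14.2%), whose intervals overlapped. Cassette exon events were listed for 18 of the 169 genes (10.7%, 6.44 to 16.3%), 14 of the 248 (5.65%, 3.12 to 9.29%) and 6.19% (5.63 to 6.78%) of the 6932. Among genes with at least 100 reads they were listed for 11.5% (6.94 to 17.5%), 6.10% (3.29 to 10.2%) and 8.49% (7.31 to 9.80%). Retained introns were listed for 7 of the 169 (4.14%, 1.68 to 8.35%), 19 of the 248 (7.66%, 4.68 to 11.7%) and 2.01% (1.69 to 2.36%) of the 6932. With at least 100 reads the shares were 3.82% (1.42 to 8.13%), 8.92% (5.46 to 13.6%) and 2.75% (2.08 to 3.56%). The 7 genes with a retained intron event and a proximal intron peak were DDX39A, U2AF1, ISYNA1, CDK16, CDK5RAP3, EIF3B and HNRNPH1. For events of any type, cassette exons and retained introns, the intervals of genes with a proximal intron peak overlapped those of genes with peaks in other regions only. The events, in another genome build, were matched by gene and not by position.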

How the data were processed

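The samples were 2 RBM17 eCLIP replicates and 1 size-matched input from K562 cells. The authors processed reads with an eCLIP pipeline (cutadapt and STAR are named in the submitters' processing notes, without versions) and deposited 3 interval lists. The values deposited for replicate 1 are a −log10 p, limited to 400, and a log2 fold over input. The deposited value of replicate 2 is a p-value of the peak caller, at most 0.05 and not relative to input, with a gene and reads in the cluster name. In the deposited reproducible list, a single −log10 p and log2 fold describes each peak, and that the latter is the mean of the replicates was inferred from the values after they were seen. Starts are given 1-based. Positions reach 249211724 on chromosome 1 and are taken as hg19, since no build is given in the sources used here. Regions and genes came from the study's peak annotation, in which 2 member entries had turned into dates and were named through their Ensembl gene.

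Clusters had to overlap a peak by at least 1 bp on the same strand, and the one with the largest overlap was used. Medians have exact order-statistic intervals and shares exact Clopper-Pearson intervals (95%). Functions were tested on simulated intervals. Python 3.11.15, pandas 2.3.3, numpy 2.4.6, scipy 1.17.1 and matplotlib 3.10.9 were used. Intron sequence came from hg38 with GENCODE v44. Depth is known for replicate 2 only. Named genes were those with 3 or more members, the 10 highest folds, the 10 with the most reads, the 3 lowest folds, the study's targets with a member, and up to 4 per list; XPO6, CGGBP1, GALT, PSMA1, COPB1, ISYNA1 and CDK16 were named after their values were seen. Some items that the rule names are not reported here. The members and the gene lists were chosen with earlier results of these data known.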

Additional observations from a re-analysis of the deposited data

How the results depend on the processing

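Of 63 alternatives over 17 results, 40 stayed within the interval of the value or within 1.5 times the count, and 23 moved beyond it. Directions were not scored. Median replicate 2 reads were 23 in proximal introns and 22 in other regions. They were 23 and 23 with overlapping clusters summed, and also with at least 50% of the peak covered. Listing a proximal intron anywhere gave a share of 38.6%, as the only region 24.6%, a log2 fold of at least 4 gave 34.5% and a −log10 p of at least 5 gave 34.4%. At a log2 fold of at least 4 there were 122 peaks in 98 genes, with 150 peaks at that replicate 1 fold and 11 genes with a cassette exon event, and at a −log10 p of at least 5 there were 108 genes. With 1 peak for each gene the medians were 4.26 (combined), 4.36 (replicate 1) and 20 reads in proximal introns and 4.05, 4.05 and 19 reads in other regions. With same intervals only, the replicate 1 median of other regions was 3.94. Of the 263 peaks, 227 were covered for at least 50% by a cluster in each replicate, and 90 were covered for at least 90%. At 50% coverage the number was 236 without replicate 1 and 254 without replicate 2. Within 100 nt, 72 peaks had a neighbour. The difference to flanking clusters was 1.37 at 200 to 1000 nt and 1.41 without clusters at reproducible peaks (added after seeing the data). Of listed genes, 10.7% carried a peak, 16.1% among genes with at least 100 reads, 49.0% among genes with any reproducible peak (169 of the 418 such genes overall) and 7.30% at a log2 fold of at least 4. Replicate 1 depth is unknown. No paired analysis was possible because the input has 1 sample and no comparison of samples was tested.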

Other observations

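The share of peaks in proximal introns varied by chromosome. It was 50.0% on chromosome 20 (10 of 20) and chromosome 9 (8 of 16), 42.0% on chromosome 16 (29 of 69) and 3.23% on chromosome 15, where PRC1 held the only 1 of 31. Peaks of one gene fall together, so these counts are not independent.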
